A study of Brassica rapa subsp. pekinensis with 6 samples.

Results

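The phenylpropanoid and lignin genes described here were 151 annotated mRNAs of Chinese cabbage. They were taken by name from the 33354 reference mRNAs of the deposited transcript table. An mRNA was included when its description held one of a fixed set of terms for the enzymes of the pathway, among them phenylalanine ammonia-lyase, cinnamate, coumarate, coumaroyl, caffeoyl, cinnamoyl, cinnamyl, laccase, dirigent and ferulate. No expression value entered this choice. The descriptions come from sequence similarity, so a name gives the closest described family and not a measured activity.

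The phenylpropanoid pathway turns the amino acid phenylalanine into hydroxycinnamic acids and their CoA esters. These are reduced to monolignols, the alcohols that are exported to the cell wall. There, laccases and peroxidases oxidise the monolignols to radicals that couple into lignin, the polymer that stiffens and waterproofs xylem vessels, fibres and the Casparian strip of roots, while dirigent proteins steer radical coupling toward particular stereochemical products such as lignans. The same CoA esters also feed flavonoids, the sinapate esters typical of Brassica seeds, and conjugates with polyamines.

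RNA was measured in germinated seeds of the doubled haploid line 'FT', which was derived from the variety 'Fukuda 50', so that all groups share 1 homozygous genotype. Seeds germinated on wet filter paper at 25 °C, and those of the Nor group stayed at that temperature in the dark for about 48 h. Those of the Ver group were moved to 4 °C in the dark for 25 days. Each group had 3 libraries, and 1 dish of 20 seeds made 1 replicate. Both groups were collected at the same length, therefore the Ver seeds were older as well as colder, and the effects of cold and of time cannot be told apart. The samples were whole germinated seeds, and in such bulk RNA fewer cells of a type and less RNA per cell cannot be told apart.

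Estimated counts summed to between 83976912 and 104903263 per library. All 151 mRNAs had at least 1 count in a library and 142 reached 10 counts. The filter on low counts of edgeR kept 138 of them for testing, and the other 13 were left without a test. An mRNA was called under the thresholds the study used, that is, when the log2 fold change (Ver over Nor) exceeded 1 in either direction and the unadjusted p did not exceed 0.05. For some groups, counts at that p whatever the fold are also given. They have no share of all tested mRNAs beside them and are description only. Adjusted p-values below are Benjamini-Hochberg values over all tested transcripts from edgeR's quasi-likelihood test, and SE is the standard error of a log2 fold change, derived from the F statistic. Levels are given as FPKM, which corrects for transcript length and can be compared between genes.

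Most of the mRNAs that passed the thresholds were lower after vernalization. Of the 138 tested, 49 were called (35.5%), against 17.8% of all tested reference mRNAs. They divided into 39 that fell (28.3%, against a background of 9.39%) and 10 that rose (7.25%, against 8.42%). With the adjusted p at the same limit, 42 were called, 35 lower and 7 higher, where the background was 14.4%, 7.7% and 6.75%. The 3 Nor and 3 Ver libraries did not overlap for 94 of the 138, with 70 lower and 24 higher, beside 52.7%, 27.2% and 25.5% of all tested mRNAs. The median log2 fold change of the 138 was -0.48, and that of all tested reference mRNAs was -0.01.

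**Figure D1:**
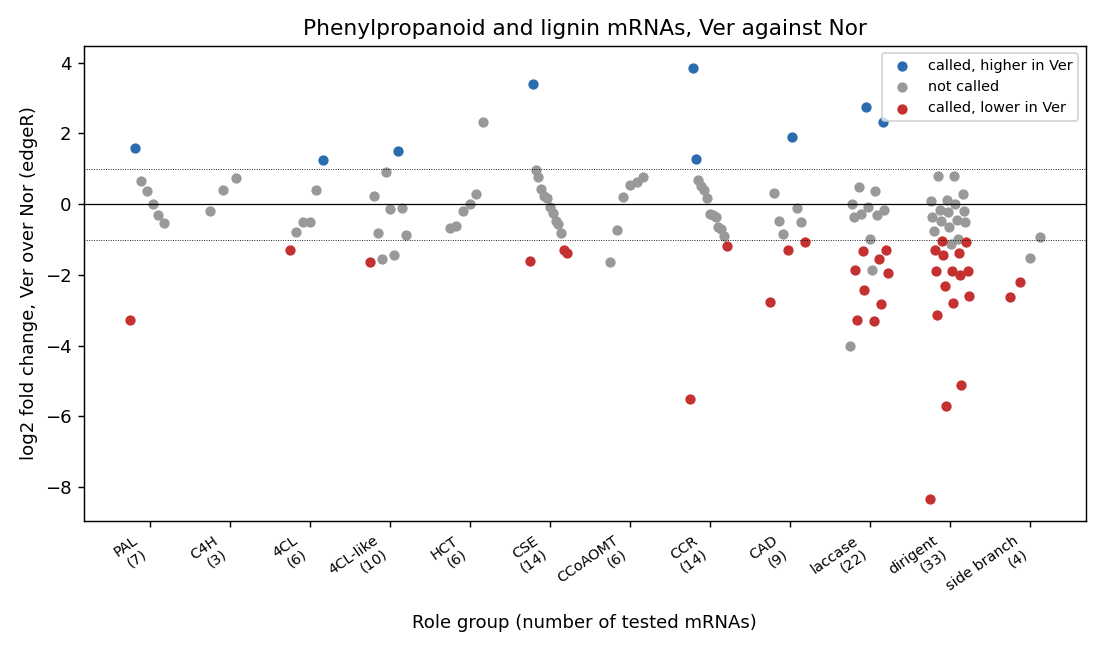
The vertical axis gives the log2 fold change (Ver over Nor, edgeR) of each of 134 tested mRNAs in 12 role groups, and the horizontal axis gives the role group with its number of tested mRNAs. Red points are the 38 called lower, blue points the 9 called higher, dotted lines mark the fold threshold, and the lowest dirigent point belongs to an mRNA with no count in Ver, whose fitted value depends on the prior count. The called mRNAs of the dirigent group lie below 0 without exception, while PAL, CCR and laccase hold calls on both sides.

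The role groups did not share the shift equally. The sum of FPKM over all 151 mRNAs averaged 1250 ± 1.7 for Nor and 857 ± 8.8 for Ver (SD over n = 3 libraries each, here and below). Adding the assembled transcripts of their genes, but no other reference mRNA, gave 2135 ± 24 for Nor and 1699 ± 76 for Ver. This was a relatively smaller difference with more spread. Of this sum, genes of shikimate O-hydroxycinnamoyltransferase (HCT) held 679 ± 36 in Nor and 647 ± 76 in Ver. Their annotated mRNAs alone summed to 64.3 ± 1.6 and 57.2 ± 1.8. These genes include a locus whose reads could not be separated, as described below. Dirigent proteins contributed most to the difference over the annotated mRNAs, with a summed 260 ± 6.0 FPKM for Nor and 117 ± 2.1 for Ver. Cinnamyl alcohol dehydrogenases (CAD) stood at 189 ± 4.9 and 100.8 ± 5.0, and laccases at 66.8 ± 2.9 and 33.4 ± 1.1, in the same order and notation. Phenylalanine ammonia-lyases (PAL), at the entry of the pathway, summed to 119 ± 3.8 FPKM in Nor and 138 ± 1.5 in Ver. Cinnamoyl-CoA reductases (CCR) summed to 97.1 ± 2.5 and 95.7 ± 2.4 over the annotated mRNAs, and to 176 ± 5.8 and 155 ± 1.4 with the assembled transcripts of their genes. For the 4CL-like ligases the corresponding values were 41.9 ± 1.4 and 41.5 ± 2.5, and 70.4 ± 1.0 and 88 ± 2.3. The libraries of both groups overlapped over the annotated mRNAs. They were apart with the assembled transcripts added, lower in Ver for CCR and higher in Ver for the 4CL-like ligases.

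**Figure D2:**
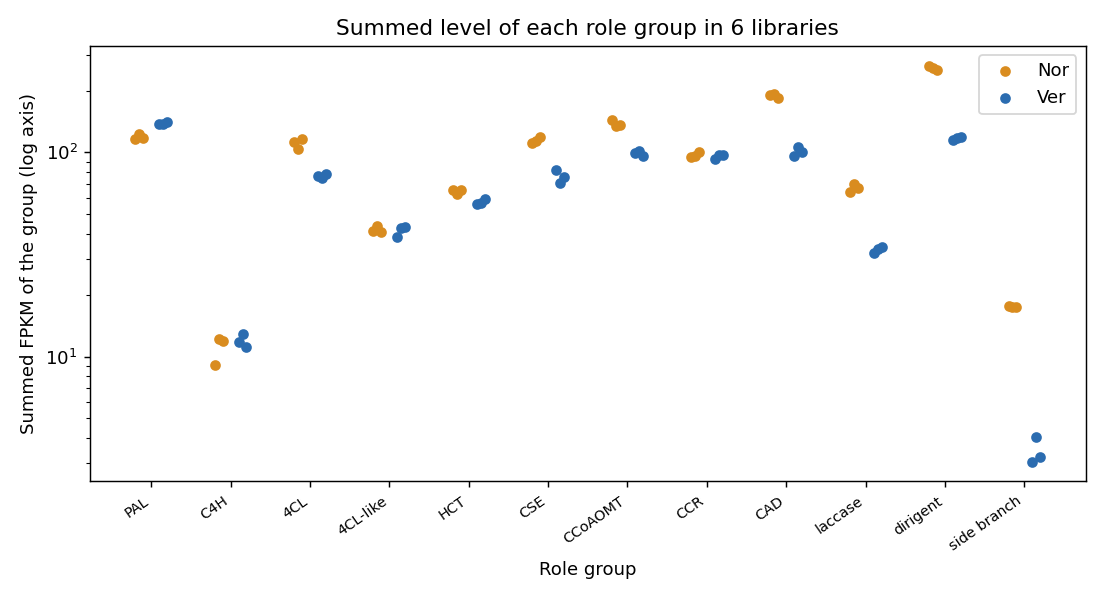
Each point is the summed FPKM (log axis) of a role group in 1 library, with 3 Nor libraries in orange and 3 Ver libraries in blue. The libraries of the 2 groups are apart for dirigent proteins (254 to 266 in Nor, 115 to 119 in Ver), laccases, CAD and the side branch, and over these annotated mRNAs they overlap for CCR, C4H and the 4CL-like ligases.

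PAL, the enzyme that removes ammonia from phenylalanine and commits it to the pathway, was represented by 7 mRNAs, all tested. PAL4 (BraA05g036420.3C, chromosome A05, 25376139 to 25380616) had 5.98, 6.12 and 5.53 FPKM in Nor and 18.1, 17.1 and 17.7 in Ver. Every Ver library was well above every Nor library. The rise was 2.99-fold (log2 1.58 ± 0.054 SE, edgeR adjusted p = 4.71e-05). Of the 2 PAL3 mRNAs, BraA04g015350.3C moved in the opposite direction at a low level, with 0.735, 0.959 and 0.868 FPKM in Nor and 0.073, 0.156 and 0.0315 in Ver. It fell 9.73-fold (log2 -3.28 ± 0.63 SE, edgeR adjusted p = 0.0152). The other PAL3 mRNA was not called. Both together summed to 0.898, 1.29 and 1.24 FPKM in Nor and 0.374, 0.331 and 0.245 in Ver.

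The 2 copies of PAL1, the gene with the highest PAL level here and in Arabidopsis a main contributor to lignin, exchanged ranks without passing the fold threshold. The A05 copy (BraA05g008320.3C, 4290862 to 4293647) measured 39, 40.5 and 39.6 FPKM in Nor and 51.3, 52.5 and 51.3 in Ver (log2 0.38 ± 0.024 SE, edgeR adjusted p = 0.000364). The A04 copy (BraA04g026260.3C, 18730320 to 18732886) measured 46.7, 50.6 and 47.2 in Nor and 33.6, 31.9 and 34.8 in Ver (log2 -0.53 ± 0.05 SE, edgeR adjusted p = 0.00107). Their summed FPKM was 85.7, 91.1 and 86.7 in Nor and 84.9, 84.5 and 86.2 in Ver, so that the level of PAL1 as a whole overlapped between the groups. The ratio of the A05 to the A04 copy was 0.836, 0.801 and 0.839 under Nor and 1.52, 1.64 and 1.47 under Ver, which is given without a test because these copies were picked after their values were seen. PAL2 on A09 (BraA09g044270.3C) stayed under the fold threshold at log2 0.65 ± 0.04 SE (edgeR adjusted p = 0.000218), and the PAL2-like copy on A07 (BraA07g021160.3C) had overlapping libraries.

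Cinnamate 4-hydroxylase (C4H), the P450 enzyme that adds the ring hydroxyl to cinnamate, had 3 mRNAs, and edgeR and DESeq2 called 0 of them, with 0 at an unadjusted p of 0.05 or less. BraA03g016250.3C had 3.39, 5.06 and 5.2 FPKM in Nor and 4.71, 7.08 and 6.41 in Ver (log2 0.41 ± 0.23 SE, edgeR adjusted p = 0.262). BraA04g021710.3C had a log2 fold change of -0.18 ± 0.16 SE and BraA04g021700.3C one of 0.75 ± 0.69 SE. The libraries of Nor and Ver overlapped for all 3. Both A04 mRNAs were assembled into the same gene together with further transcripts, and they held only 21.3% and 0.348% of its counts. With every transcript of the C4H genes included, the summed level was 27.8 ± 1.6 FPKM in Nor and 28.4 ± 2.2 in Ver (SD, n = 3 each).

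4-Coumarate--CoA ligase (4CL) activates the hydroxycinnamic acids as CoA esters. Its summed FPKM went from 111 ± 6.3 in Nor to 76.6 ± 1.4 in Ver (SD, n = 3 each). The main contributor was 4CL1 (BraA05g018190.3C), which in Arabidopsis serves lignin, with 79.5, 80.4 and 82.7 FPKM in Nor and 57.9, 54.9 and 57.6 in Ver. All Ver libraries were lower, by a log2 fold change of -0.51 ± 0.031 SE that did not reach the fold threshold (edgeR adjusted p = 0.000292). 4CL4 (BraA03g039680.3C) read 16.1, 14.6 and 15.9 in Nor against 6.46, 5.98 and 6.38 in Ver. This was a 2.48-fold fall (log2 -1.31 ± 0.064 SE, edgeR adjusted p = 0.000142). Its tandem neighbour BraA03g039690.3C had a log2 fold change of -0.78 ± 0.12 SE, under the fold threshold. The 4CL4-like mRNA BraA05g025900.3C had one of -0.51 ± 0.17 SE, also under it. A further mRNA described as 4CL4, BraA05g025870.3C, was left without a test, but the sum of its gene had log2 -3.07. As gene sums, 2 of the 4CL genes were called lower.

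4CL2 (BraA05g025850.3C) illustrates how reads can be divided between transcripts of a gene. It was listed at 7.69, 0.999 and 8.42 FPKM in Nor and 6.92, 7.42 and 8.31 in Ver, and the second Nor library stood alone. The log2 fold change was 0.40 ± 0.75 SE for this transcript and 0.06 for the sum of its gene. 4CL3 (BraA07g031570.3C), the flavonoid-linked isoform of Arabidopsis, was counted 7, 6 and 5 times under Nor and 17, 10 and 17 times under Ver. It met the call at log2 1.25 ± 0.4 SE with edgeR adjusted p = 0.0737, but held 1.06% of its gene's counts, and the gene sum had a log2 fold change of 0.38.

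Among the 12 4CL-like ligases, acyl-activating enzymes whose substrates differ and are often not hydroxycinnamates, 10 were tested and 1 was called in each direction. The background was 9.39% lower and 8.42% higher. 4CL-like 4 (BraA07g015710.3C) had 4.4, 6.53 and 5.98 FPKM in Nor and 1.67, 1.59 and 2.19 in Ver. It fell 3.1-fold (log2 -1.63 ± 0.21 SE, edgeR adjusted p = 0.00381), and the copy next to it on A07, BraA07g015720.3C, had a log2 fold change of -0.87 ± 0.064 SE. 4CL-like 7 (BraA09g024990.3C) had 3.95, 5.67 and 4.06 FPKM in Nor and 10.2, 16.3 and 12.1 in Ver. The annotated transcript rose 2.82-fold (log2 1.49 ± 0.23 SE, edgeR adjusted p = 0.00793), but it carried 18.4% of the gene's counts and the gene sum stood at log2 0.95. The most abundant member, 4CL-like 5 (BraA08g027790.3C), which in Arabidopsis activates jasmonate precursors, had overlapping libraries (log2 -0.14 ± 0.12 SE).

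Shikimate O-hydroxycinnamoyltransferase (HCT) moves the coumaroyl group onto shikimate, where the next hydroxylation takes place. All 6 HCT mRNAs were tested, and edgeR and DESeq2 called 0, while 3 were lower at an unadjusted p of 0.05 or less. The most abundant one, BraA07g000280.3C, had 59, 57.1 and 59.7 FPKM in Nor and 49.4, 51.5 and 52.9 in Ver. The groups were apart, but the log2 fold change was only -0.20 ± 0.038 SE (edgeR adjusted p = 0.0155). BraA07g026430.3C and BraA01g020780.3C were also lower in every Ver library, at -0.69 ± 0.17 and -0.62 ± 0.13 (log2, SE), while BraA02g006460.3C had overlapping libraries. A pair of HCT mRNAs on A03 was assembled together with a D-amino-acid transaminase into a gene of 8 transcripts. BraA03g012190.3C and BraA03g012200.3C held 0.0813% and 0.14% of its counts, with log2 fold changes of 0.28 ± 1.02 SE and 2.31 ± 1.5 SE, and the sum of that gene had -0.05. Reads of those HCT copies therefore could not be separated from reads of the rest of the locus.

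Caffeoylshikimate esterase (CSE) releases caffeate from caffeoyl shikimate. Of 15 mRNAs with this description, 14 were tested, 3 fell and 1 rose, where the background was 9.39% lower and 8.42% higher. BraA02g008090.3C, the most abundant in Nor, had 37.3, 40.5 and 41.2 FPKM in Nor and 14.2, 12.1 and 12.6 in Ver. It fell 3.06-fold (log2 -1.61 ± 0.079 SE, edgeR adjusted p = 0.000141), and with it the share of this mRNA in the summed CSE level went from 34.7% to 17.1%. BraA04g000540.3C fell 2.6-fold (log2 -1.38 ± 0.29 SE, edgeR adjusted p = 0.0201). A fall of BraA03g020880.3C (log2 -1.30 ± 0.51 SE) and a rise of BraA02g005780.3C (log2 3.39 ± 1.1 SE; counts of 0, 5 and 2 for Nor and of 42, 22 and 16 for Ver) met the call, but had edgeR adjusted p-values of 0.129 and 0.0763. The first is lost under 12 alternatives and the second under 6. BraA06g001830.3C, next in abundance, had log2 -0.56 ± 0.059 SE, and BraA08g031830.3C had 0.76 ± 0.13 SE in the other direction. BraA09g052130.3C had a log2 fold change of 0.96 ± 0.5 SE as a transcript and -0.18 as a gene sum, so its direction depended on how reads were divided.

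Caffeoyl-CoA O-methyltransferase (CCoAOMT) methylates the ring hydroxyl of caffeoyl-CoA. The CCoAOMT1-like mRNA BraA08g016250.3C had 111, 112 and 107 FPKM in Nor and 65.6, 65.1 and 67 in Ver. It was the second most abundant of the 151 mRNAs, and each Ver library was lower by about the same amount. The log2 fold change of -0.74 ± 0.03 SE was 1.67-fold and did not pass the fold threshold (edgeR adjusted p = 7.83e-05). With edgeR it was the 1 of the 6 tested CCoAOMT mRNAs at an unadjusted p of 0.05 or less, and 0 were called. DESeq2 called 1, lower, which was a different mRNA, BraA02g018010.3C (log2 -1.64). BraA08g025270.3C, the next in level, had 31, 21.8 and 28.2 in Nor and 32.2, 33.5 and 27.1 in Ver (log2 0.19 ± 0.16 SE). BraA08g010640.3C had log2 0.62 ± 0.3 SE and BraA01g016990.3C log2 0.53 ± 1.3 SE. Neighbouring A02 copies, BraA02g018000.3C (log2 0.78 ± 1.3 SE) and BraA02g018010.3C (log2 -1.63 ± 0.67 SE), held 0.601% and 1.03% of their genes' counts. The gene sum of the former rose (log2 1.17) and that of the latter had a log2 fold change of 0.17.

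CCR converts the CoA esters to aldehydes and is the first step specific to monolignols. Of 15 CCR mRNAs 14 were tested, with 2 called in each direction, beside 9.39% lower and 8.42% higher among all tested reference mRNAs. The largest rise among all called members was in BraA06g006390.3C (CCR1-like, chromosome A06, 3650219 to 3652314), with 0.765, 0.806 and 0.757 FPKM in Nor and 12.2, 11 and 10.9 in Ver. It was below 1 in all Nor libraries and above 10 in all Ver libraries. The rise was 14.5-fold (log2 3.86 ± 0.095 SE, edgeR adjusted p = 1.75e-05). A second CCR1 mRNA, BraA09g062380.3C, had 4.48, 4.31 and 4.27 FPKM in Nor and 10.4, 10.3 and 10.8 in Ver, a rise of 2.41-fold (log2 1.27 ± 0.068 SE, edgeR adjusted p = 0.000199). CCR1 is the form of Arabidopsis tied to lignin in development, and CCR2 the form tied to defence.

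The most abundant CCR1 mRNA had the opposite sign. BraA09g058440.3C gave 37, 39.8 and 34.9 FPKM in Nor and 23.7, 24.6 and 23.3 in Ver (log2 -0.65 ± 0.058 SE, edgeR adjusted p = 0.00119), and its share of the summed CCR level went from 38.4% to 24.9%. The 2 CCR mRNAs that fell were rare. BraA05g018310.3C was counted 99, 141 and 86 times under Nor and 0, 7 and 0 times under Ver (log2 -5.51 ± 1.4 SE, edgeR adjusted p = 0.0403), and BraA02g005610.3C fell 2.28-fold (log2 -1.19 ± 0.29 SE, edgeR adjusted p = 0.0344). BraA04g024140.3C and BraA04g017530.3C had positive log2 fold changes as transcripts, 0.18 ± 0.38 SE and 0.51 ± 0.44 SE, and slightly negative ones as gene sums, -0.06 and -0.07.

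CAD reduces the aldehydes to the monolignols themselves. It was the group with the most abundant of all 151 mRNAs, BraA06g044370.3C (probable CAD9, chromosome A06, 28889051 to 28890462), which had 119, 121 and 122 FPKM in Nor and 57, 59.4 and 57.1 in Ver. The spread within each group was small beside the distance between them. It fell 2.09-fold (log2 -1.07 ± 0.028 SE, edgeR adjusted p = 2.05e-05), and by FPKM it alone made up 9.67% of the level of all 151 mRNAs in Nor and 6.75% in Ver. BraA01g001080.3C (CAD7-like) had 10.8, 13 and 12.1 FPKM in Nor and 1.56, 2.75 and 1.01 in Ver, a fall of 6.74-fold (log2 -2.75 ± 0.4 SE, edgeR adjusted p = 0.00598). CAD8 (BraA08g021830.3C) met the call at log2 -1.30 ± 0.39 SE with edgeR adjusted p = 0.0609.

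CAD4 and CAD5 carry most of the lignin-related CAD activity in Arabidopsis stems. CAD5 on A01 (BraA01g004030.3C) had 0.12, 0.152 and 0.0506 FPKM in Nor and 0.317, 0.362 and 0.541 in Ver. It rose 3.73-fold (log2 1.90 ± 0.49 SE, edgeR adjusted p = 0.0397) from a very low level. The more abundant CAD5 copy on A03 (BraA03g058710.3C) had log2 -0.10 ± 0.29 SE, with overlapping libraries, and a gene sum of 0.19. CAD4 (BraA05g027840.3C) measured 35.7, 34.2 and 26.9 FPKM in Nor and 20.6, 25.2 and 24.1 in Ver (log2 -0.47 ± 0.14 SE, edgeR adjusted p = 0.0582).

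Laccases are secreted copper oxidases, and LAC4, LAC11 and LAC17 polymerise lignin in Arabidopsis stems. All 22 laccase mRNAs were tested, and 9 fell while 2 rose, beside 9.39% lower and 8.42% higher among all tested reference mRNAs. The 11 calls also passed with the adjusted p. The mRNAs described as laccase-17 fell in all 3 copies. BraA03g011020.3C had 3.19, 3.83 and 3.49 FPKM in Nor and 0.403, 0.402 and 0.279 in Ver, a fall of 9.63-fold (log2 -3.27 ± 0.2 SE, edgeR adjusted p = 0.000313). BraA02g010500.3C, the most abundant copy, had 6.59, 6.42 and 6.84 in Nor and 0.907, 0.796 and 1.1 in Ver, a fall of 7.07-fold (log2 -2.82 ± 0.15 SE, edgeR adjusted p = 0.00018). The third, BraA10g017800.3C, fell 5.43-fold (log2 -2.44 ± 0.19 SE). Together the 3 copies summed to between 11.4 and 12 FPKM in Nor and between 1.56 and 1.64 in Ver.

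Both mRNAs described as laccase-4 fell as well. BraA05g007550.3C had 9.09, 10.4 and 9.8 FPKM in Nor and 2.36, 2.47 and 2.75 in Ver (3.87-fold, log2 -1.95 ± 0.09 SE, edgeR adjusted p = 0.000119), and BraA04g027000.3C fell 2.48-fold (log2 -1.31 ± 0.17 SE). Of the 2 laccase-11 mRNAs, the abundant one, BraA10g032730.3C, fell 2.52-fold (log2 -1.33 ± 0.1 SE, edgeR adjusted p = 0.000616), whereas BraA02g000800.3C had overlapping libraries (log2 -0.08 ± 0.27 SE). The FPKM of the latter was 0.147, 0.126 and 0.261 times that of the former in Nor and 0.464, 0.404 and 0.374 times in Ver. Other laccases that fell were laccase-2 (BraA05g014900.3C, 9.92-fold, log2 -3.31 ± 0.24 SE), a laccase-8-like mRNA (BraA02g000380.3C, 3.62-fold) and laccase-1 (BraA08g028900.3C, 2.94-fold).

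Laccase-5 went the other way in both of its copies. BraA05g005760.3C (chromosome A05, 2875320 to 2877705) had 0.244, 0.232 and 0.223 FPKM in Nor and 1.5, 1.65 and 1.58 in Ver. It rose 6.66-fold (log2 2.73 ± 0.15 SE, edgeR adjusted p = 0.000202). The copy on A04 (BraA04g028470.3C) had 0.434, 0.633 and 0.832 in Nor and 3.21, 3.09 and 3.28 in Ver, a rise of 5.03-fold (log2 2.33 ± 0.26 SE, edgeR adjusted p = 0.0025). No Nor library of either copy reached the level of any Ver library. The 2 copies together summed to between 0.678 and 1.06 FPKM in Nor and between 4.71 and 4.85 in Ver.

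Laccase-3 on A04 (BraA04g021510.3C) was the most abundant laccase over the 6 libraries, with 7.5, 7.03 and 7.21 FPKM in Nor and 7.29, 7.52 and 6.96 in Ver. The libraries overlapped, and the log2 fold change was -0.00 ± 0.06 SE. Its share of the summed laccase level went from 10.9% to 21.7%. A laccase-8-like mRNA on A03 (BraA03g000430.3C) had 1.22, 0.00146 and 1.55 FPKM in Nor and 0.0828, 0.033 and 0.0505 in Ver. Its second Nor library lay below all Ver libraries and it was not called (log2 -3.997 ± 1.7 SE, edgeR adjusted p = 0.147), although the sum of its gene fell (log2 -1.02).

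**Figure D3:**
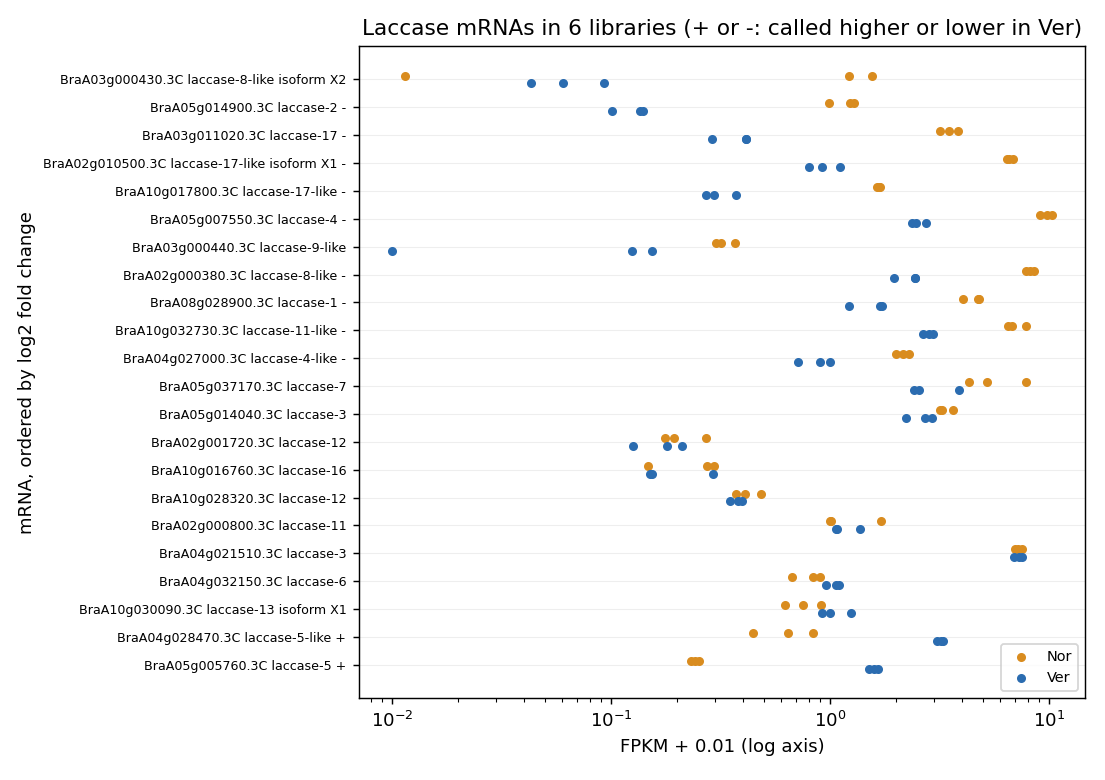
Each row is 1 of the 22 laccase mRNAs, ordered by log2 fold change, and the points give FPKM + 0.01 (log axis) in 3 Nor libraries (orange) and 3 Ver libraries (blue). The laccase-17 and laccase-4 rows have all Ver points to the left of all Nor points, the laccase-5 rows have them to the right, and the laccase-3 row on A04 has them on top of each other.

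Dirigent proteins, which have no oxidase activity of their own, were the largest group. Of 37 mRNAs 33 were tested. With edgeR, 16 fell and none rose, beside 9.39% lower and 8.42% higher among all tested reference mRNAs. The adjusted p was passed by 14 of the falls. At an unadjusted p of at most 0.05 whatever the fold, 20 were lower, the 16 called among them. On the positive side there were 3, with log2 fold changes between 0 and 1. No share of all tested mRNAs is given for this looser rule. With DESeq2 none rose, and without the first Nor library 1 did. The most abundant one was BraA02g028490.3C (dirigent protein 6-like, chromosome A02, 17788875 to 17789438), with 35.8, 35.2 and 36.8 FPKM in Nor and 8.9, 8.29 and 9.5 in Ver. It fell 4.04-fold (log2 -2.02 ± 0.07 SE, edgeR adjusted p = 4.78e-05). The dirigent protein DIR6 of Arabidopsis directs the coupling of coniferyl alcohol to pinoresinol, a lignan.

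The steepest falls left almost no signal in Ver. Dirigent protein 3 (BraA01g037900.3C) had 25.3, 28.1 and 23.5 FPKM in Nor and 0.294, 0.456 and 0.708 in Ver, a fall of 52-fold (log2 -5.70 ± 0.38 SE, edgeR adjusted p = 0.000421). BraA06g000670.3C (dirigent protein 20-like) had 18.6, 21.5 and 19.9 in Nor and 0.651, 0.587 and 0.478 in Ver, a fall of 34.5-fold (log2 -5.11 ± 0.17 SE, edgeR adjusted p = 4.29e-05). A dirigent protein 6-like mRNA on A03 (BraA03g027560.3C) was counted 42, 20 and 62 times under Nor and not once in any Ver library. Against a floor of 3 counts per library it was at least 13.5-fold lower in Ver.

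The dirigent protein 20 mRNAs fell as a block. All 6 were called, and their summed FPKM was between 56.6 and 60.6 in Nor and between 12.4 and 13.4 in Ver. They included the A05 mRNA BraA05g016340.3C, with 21.8, 21.1 and 20.9 FPKM in Nor and 8.77, 8.11 and 7.64 in Ver (log2 -1.38 ± 0.079 SE, edgeR adjusted p = 0.00025). Other members lay side by side, as a run of 3 on A06 (BraA06g000670.3C, BraA06g000680.3C and BraA06g000690.3C, within 459117 to 466693) and a pair on A08. BraA06g000680.3C rested on counts of 41, 33 and 25 for Nor and of 7, 0 and 4 for Ver, and had an edgeR adjusted p of 0.0787.

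Not every dirigent number followed. Of the neighbouring dirigent protein 21 mRNAs on A04, BraA04g002900.3C had 26.8, 23.4 and 25.6 FPKM in Nor and 4.26, 4.8 and 6.17 in Ver (4.99-fold lower, log2 -2.32 ± 0.16 SE, edgeR adjusted p = 0.0005). The adjacent BraA04g002890.3C had log2 -0.22 ± 0.2 SE, and its FPKM relative to its neighbour was 0.0334, 0.0363 and 0.0325 in Nor and 0.182, 0.137 and 0.128 in Ver. Both dirigent protein 18 mRNAs fell (BraA08g006420.3C and BraA04g008530.3C, 2.7-fold and 2.46-fold). On the positive side, dirigent protein 6 (BraA03g051360.3C) had 5.02, 4.33 and 4.13 FPKM in Nor and 7.28, 8.97 and 7.41 in Ver, under the fold threshold at log2 0.81 ± 0.15 SE (edgeR adjusted p = 0.013). Dirigent protein 5 (BraA09g013620.3C) had log2 0.79 ± 0.24 SE, and the abundant 6-like mRNA BraA08g020890.3C had overlapping libraries.

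**Figure D4:**
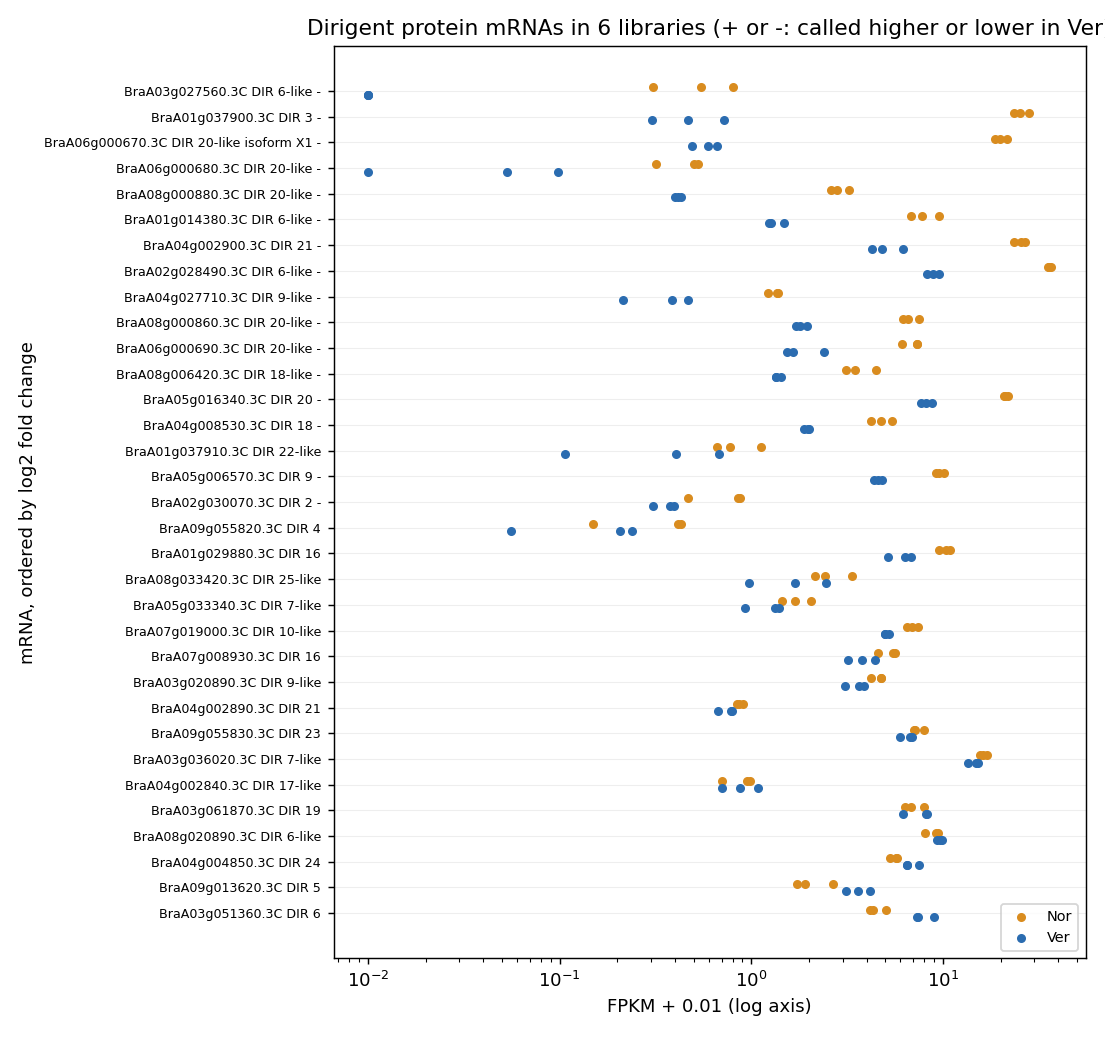
Each row is 1 of the 33 tested dirigent mRNAs (DIR), ordered by log2 fold change, with FPKM + 0.01 (log axis) of 3 Nor libraries (orange) and 3 Ver libraries (blue). The upper rows, with a minus sign, are the 16 called lower, and their Ver points lie to the left of their Nor points.

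Side reactions of the hydroxycinnamoyl pool were represented by 4 mRNAs. The 2 spermidine coumaroyl-CoA acyltransferases, which place coumaroyl groups on the polyamine spermidine, both fell. BraA03g055210.3C had 9.8, 9.47 and 9.85 FPKM in Nor and 1.36, 1.8 and 1.56 in Ver (6.18-fold, log2 -2.63 ± 0.13 SE, edgeR adjusted p = 0.000133). BraA04g020560.3C had 6.91, 7.65 and 6.98 in Nor and 1.44, 1.79 and 1.5 in Ver (4.56-fold, log2 -2.19 ± 0.12 SE, edgeR adjusted p = 0.000209). No Ver library of either mRNA reached the level of any Nor library. A hydroxycinnamate glucosyltransferase and a coumaroyl-CoA:anthocyanidin acyltransferase, both with few counts, were not called.

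Reads of a gene were divided between its annotated and assembled transcripts, so each member was also examined as the sum of its gene. The members belonged to 149 genes, and 108 were the only transcript of their gene. Of the 49 calls, 40 were in these and are untouched by the division. Summed per gene, 51 of 139 tested genes were called (36.7%), 41 lower and 10 higher. Of all tested genes that hold a reference mRNA, 18.4% were called, 9.69% lower and 8.68% higher. The same direction was called by transcript and by gene sum for 47 of the 49 mRNAs, and the exceptions were 4CL3 and 4CL-like 7. Among the 40 tested members whose gene held further transcripts, 7 were called by both, 2 as transcripts only and 2 as gene sums only.

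**Figure D5:**
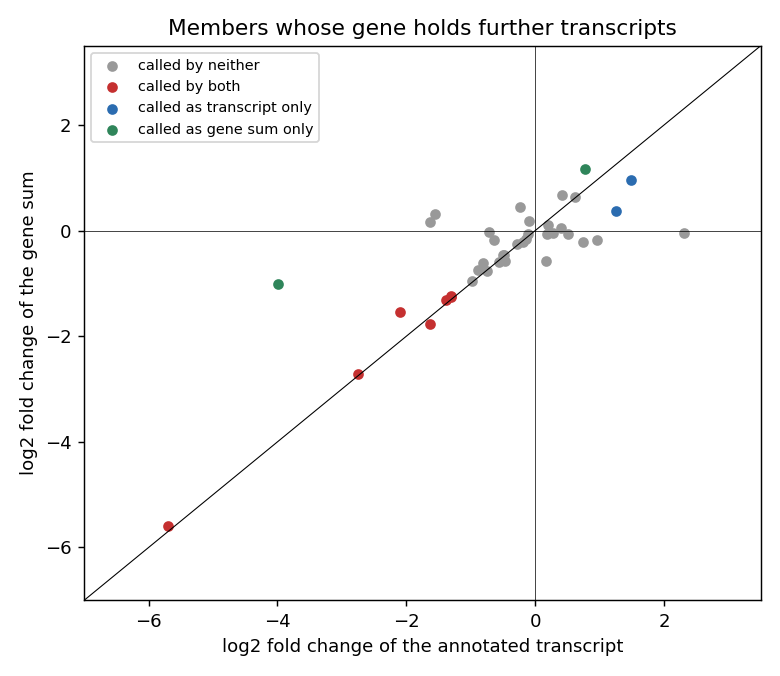
The horizontal axis is the log2 fold change of the annotated transcript and the vertical axis that of its gene sum, for the 40 tested mRNAs whose gene holds further transcripts. The 7 red points called by both lie near the diagonal, and the grey, blue and green points away from it are mRNAs whose value changes with the division of reads.

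Some of the genes lie next to each other. Runs of members of 1 role group with gaps of at most 20000 bp numbered 18 and held 42 of the 151 mRNAs. In 2 runs, the dirigent protein 20-like runs on A06 and A08, 2 or more mRNAs were called. No run held calls in both directions. Of the 151 mRNAs, 63 carried a gene ontology term for lignin, and of the 58 tested among these 13 fell (22.4%, beside 9.39% of all tested mRNAs) and 5 rose (8.62%, beside 8.42%).

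Genes around the pathway were followed in lists chosen by description. For comparison with the counts of these lists, 9.39% of all tested reference mRNAs were called lower and 8.42% higher. In the supply of phenylalanine from chorismate and its precursors, 32 of 36 mRNAs were tested, 3 fell and 1 rose. One of those that fell was DAHP synthase (BraA01g000850.3C, log2 -1.11 ± 0.072 SE), the entry enzyme of the shikimate pathway, and the other 2 were isochorismate synthases, which lead to salicylate rather than to phenylalanine. The rise was in an arogenate dehydratase (BraA09g062860.3C, log2 2.67 ± 0.62 SE). Of 5 tested P450 mRNAs of ring hydroxylation, edgeR and DESeq2 called 0 and 2 were higher at an unadjusted p of 0.05 or less, and the ferulate 5-hydroxylase-like mRNA BraA03g059910.3C came nearest among the abundant ones at log2 0.85 ± 0.028 SE.

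Sinapate esters are made and cleaved by enzymes of a further list. Of 4 tested, 2 fell, a sinapine esterase (BraA07g011490.3C, log2 -1.13 ± 0.073 SE) and a spermidine sinapoyl-CoA acyltransferase (BraA10g030120.3C, log2 -2.24 ± 0.13 SE). The others had log2 fold changes of 0.04 ± 0.32 SE (BraA08g010160.3C) and -0.08 ± 0.11 SE (BraA08g024160.3C). In the list of oxidases and scaffolds of the wall (Casparian strip and CASP-like proteins, uclacyanins and respiratory burst oxidases, and holding the endodermis markers named below), 11 of 61 fell and 5 rose. Among 14 tested MYB factors with numbers known from lignin control, 1 fell (BraA09g058260.3C, edgeR adjusted p = 0.0903) and 1 rose (BraA03g059110.3C, edgeR adjusted p = 0.0643), so that 0 passed with the adjusted p, and DESeq2 called 2 higher and 1 lower. All 14 were described as MYB4, MYB32 or MYB46, the fall as Myb4 and the rise as MYB32-like. Among 12 tested NAC factors 1 rose. With edgeR and DESeq2 0 NAC factors fell, and 1 was lower at an unadjusted p of 0.05 or less. In the supply of the methyl donor, 1 of 12 fell, an S-adenosylmethionine synthase (BraA03g029510.3C, log2 -1.01 ± 0.029 SE). At an unadjusted p of 0.05 or less with edgeR, 6 of the 12 were lower and 3 higher. The most abundant S-adenosylmethionine synthase, BraA09g002300.3C, stayed just under the fold threshold (log2 -0.92 ± 0.022 SE). The summed FPKM of the list was 2026 to 2053 in Nor and 1470 to 1504 in Ver.

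Markers of cell types differed between the groups in the same libraries. Their counts stand beside 9.39% lower and 8.42% higher among all tested reference mRNAs. Of 14 mRNAs named as xylem markers, 10 were tested and 7 fell, among them cellulose synthase A subunits 4 and 8 of the secondary wall. Their summed FPKM ranged from 61.9 to 64.2 in Nor and from 47.3 to 52.2 in Ver. More than 33 FPKM of it in each library came from bifunctional nuclease 1 (BraA02g022730.3C, log2 0.13 ± 0.06 SE). Without this mRNA, left out after seeing the data, the sums were 27 to 30 in Nor and 10.4 to 12.6 in Ver, and both subunit 7 mRNAs were near 0 in all libraries. Of 11 endodermis markers 2 fell and 1 rose, with sums of 42.3 to 44.6 in Nor and 30.2 to 31 in Ver. The list of embryo storage reserves, taken by name, also caught sinapine esterases, which were left out after seeing the data. Of the remaining 27 tested storage mRNAs, 22 rose and 2 fell, and their sums were 40.5 to 44.5 in Nor and 1438 to 1475 in Ver. Seed coat markers had 1 fall among 7 tested (33.3 to 35 in Nor, 28.8 to 30.9 in Ver), and root hair markers 1 fall among 4 tested (36.5 to 59.1 in Nor, 13.5 to 29 in Ver). The part of these cell types in the laccase, dirigent and CAD results was not tested.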

How the data were processed

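The 6 libraries (3 Nor, 3 Ver) were stranded and made after removal of rRNA. Per the paper's methods, alignment used Bowtie2 and TopHat2 against the v3.0 genome of B. rapa, and assembly StringTie, and the labels also name HISAT2. Estimated counts of each transcript, in each library, were deposited by the authors. The FPKM values deposited by the authors are normalized for length and library size, and 0 is written as 0.0001. For circRNAs, the authors deposited back-splice junction read counts and a normalized signal (SRPBM), which was not used here. Columns of the authors' own comparisons were not used.

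Members are reference transcripts with the stated terms in their description. The counts, which are whole numbers as deposited, of all transcripts were fitted together in R 4.3.3 by the quasi-likelihood F test of edgeR 4.0.16, after its default expression filter (filterByExpr) and with TMM factors, and the script was tested on simulated data. Gene sums add all transcripts with 1 gene ID. Coordinates are those of the files. Named were all tested members of the groups with 6 or fewer tested (C4H, 4CL, HCT and CCoAOMT), in the other groups up to 3 called members with the largest rise and fall, the most abundant member of each group, and up to 6 whose direction or call differed by gene sum. One role group is not reported here, though totals over all members include it. Further names were chosen after their values were seen. Members, lists and tests were chosen with earlier results of these data known. The paper counts 1 dish as 1 replicate and divides the seeds after germination, so Nor and Ver libraries may share germination dishes. Libraries were treated as independent, and p-values measure the spread between replicate libraries. Alternatives used DESeq2 1.42.0, limma 3.58.1 on log2 of FPKM, other factors, other filters, gene sums, a replicate block and leaving out each library.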

Additional observations from a re-analysis of the deposited data

How the results depend on the processing

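Of the 49 called mRNAs, 29 were called under every alternative that tested them, and none changed direction. The count was 52 with DESeq2, 38 with a mean CPM of at least 1 (6 higher), 48 with limma on log2(FPKM + 0.1) and 31 with limma on log2(FPKM + 1), of which 24 were lower. The last setting compresses the folds of mRNAs with low FPKM. It called 9 dirigent mRNAs lower, against 16. Leaving out 1 library gave 45 to 50 calls, with 37 to 39 lower and 7 to 12 higher. Calls lost under several alternatives included BraA03g020880.3C (12 alternatives), BraA02g030070.3C and BraA07g031570.3C (10 each), BraA06g000680.3C and BraA08g021830.3C (7 each) and BraA02g005780.3C (6), which also failed the adjusted p. With the replicate number as a block, 43 were called. Deviations of libraries with the same number correlated at -0.0013, 0.0027 and -0.0039 over 37316 transcripts, so the numbers were not taken to pair the samples.

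No mRNA that changed sign was called in the edgeR fit used for the results above. Some, such as BraA04g021510.3C, were close to 0 in that fit, but not all. BraA03g012200.3C stood there at log2 2.31 ± 1.5 SE, BraA02g018010.3C at -1.63 ± 0.67 SE and BraA09g052130.3C at 0.96 ± 0.5 SE. DESeq2 called BraA02g018010.3C lower (log2 -1.64). For BraA04g021510.3C the log2 fold change was 0.0017 with DESeq2, 0.0026 with RLE factors, 0.0279 without composition factors, 0.0029 without a filter, 0.003 with the CPM filter, 0.0013 and 0.0014 with limma, 0.009 as gene sum and 0.0094 with reference transcripts only. BraA02g006460.3C gave 0.0278 without composition factors, 0.0049 as gene sum and 0.0039 with reference transcripts. BraA03g012190.3C gave -0.2567 with limma (pseudocount 0.1) and -0.3134 with the block, and BraA01g016990.3C -0.0105 with the block. By gene sum the sign changed for BraA02g018010.3C (0.1676), BraA03g012190.3C and BraA03g012200.3C (-0.0494 each), BraA03g058710.3C (0.1932), BraA04g017530.3C (-0.0684), BraA04g021700.3C (-0.2196), BraA04g024140.3C (-0.0578) and BraA09g052130.3C (-0.1825). Leaving out 1 library in turn gave ranges that spanned 0 for BraA01g016990.3C (-0.0622 to 1.3083), BraA02g000800.3C (-0.2146 to 0.2204), BraA02g006460.3C (-0.332 to 0.2639), BraA03g012190.3C (-0.2694 to 0.8321), BraA03g058710.3C (-0.3221 to 0.0524), BraA04g021510.3C (-0.026 to 0.0286), BraA04g024140.3C (-0.0579 to 0.551), BraA05g025850.3C (-0.0996 to 0.79) and BraA07g021160.3C (-0.0348 to 0.0362).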

Other observations

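Of 976 circRNAs in the deposited table, 2 came from a member, the A04 copy of PAL1 (BraA04g026260.3C). The back-splice of circRNA718 (A04, 18732581 to 18732739) had 7, 0 and 5 junction reads in Nor and 0, 2 and 0 in Ver. That of circRNA719, which starts at 18732589 and ends at the same base, had 7, 0 and 2 in Nor and 0 in each Ver library. With so few reads no comparison between the groups was made.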
